A study of Mus musculus with 12 samples.

Results

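The comparison described here is that of hearts from male mice that ran on a treadmill with hearts from male mice that did not, read by RNA sequencing of bulk heart tissue. It takes 6 of the 12 libraries of the series, 3 from exercised and 3 from sedentary males, chosen by the sex and treatment in their labels, and leaves out the 37 rows of the mitochondrial chromosome. All animals were C57BL/6J wild-type mice, which are an inbred strain. The treadmill programme of the exercised males had 5 sessions a week, each of 45 min at a speed of 1 km/h, over 6 weeks, and the hearts were taken when it ended. Sedentary males were matched for age and were kept caged for the same 6 weeks. The sources used here give neither the age in weeks, the time between the last run and the harvest, nor how the heart was trimmed. The other 6 libraries, from exercised and sedentary females, served to estimate the spread and to test whether the male difference was also the female one. Libraries are called by group and number, and each is treated as the heart of 1 animal, though no label says so.

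Endurance running makes the heart pump against a raised volume load for part of each day, and training of this kind is known for a physiological form of growth with little of the fetal gene programme seen in disease. In heart muscle the coactivator PGC-1 alpha and its nuclear receptor partners set the supply of mitochondria and fat-burning enzymes, while calcium released from the sarcoplasmic reticulum drives each beat. Immediate early genes are transcription factors and feedback regulators that cells switch on within minutes of a stimulus, and the series asks in its title about training, arrhythmia and sex.

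The 6 male libraries held between 22465497 and 26607844 reads counted to genes. Within a group, pairs of libraries had a chi-square per degree of freedom of 11.6 to 34.7, far above sampling noise. Male exercised 2 stood apart: it lay at 39.49 on the first principal component, which held 30.1% of the variance, against -23.39 to 7.91 for the other 5 male libraries. The tissue label held for heart muscle, while other tissues were judged by single markers. Myh6, the adult myosin heavy chain of heart muscle, was at 25470 to 30910 CPM, the count of a gene relative to the library's scaled total, in the males. Myl7, an atrial light chain, reached 1.52 CPM at most, Adipoq, of fat cells, 0.361 CPM at most, and Myh4, of fast skeletal muscle, was at 0 in all 6. Of the genes listed for these tissues, 12 of 12 atrial, 13 of 13 fat cell and 11 of 13 skeletal muscle genes had counts in some male library. Hbb-bs, a globin of red cells, ran from 2.08 CPM in male sedentary 1 to 24.0 CPM in male exercised 1. Summed, 11 genes of epicardium and mesothelium ran from 28.9 CPM in male sedentary 1 to 47.7 CPM in male sedentary 2. Among the 10 of them tested, 8 were lower in exercised males, with a median log2 difference of -0.415.

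No gene passed the test. Of 16265 genes, 0 had a Benjamini-Hochberg adjusted p under 0.05 by the quasi-likelihood test of edgeR (0.0%), and the smallest adjusted p was 0.557. At an unadjusted p under 0.05 the test left 674 genes higher (4.14%) and 595 lower (3.66%) in exercised hearts. All 3 exercised libraries lay above all 3 sedentary ones for 988 genes (6.07%) and below them for 1016 (6.25%). These shares are the background for every count below. The differences were small: the median standard error (SE) of a log2 difference was 0.14, and 77.2% of the 1269 genes at p under 0.05 differed by less than 1.5-fold. Of the 221 genes that differed by more than 2-fold, 162 had a mean under 1 CPM in both groups. DESeq2, run beside edgeR, gave 25 of the 6175 genes it adjusted over an adjusted p under 0.05, 13 higher and 12 lower. By edgeR the adjusted p of these 25 ran from 0.557 to 0.583, and limma's voom gave 0 genes.

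**Figure D1:**
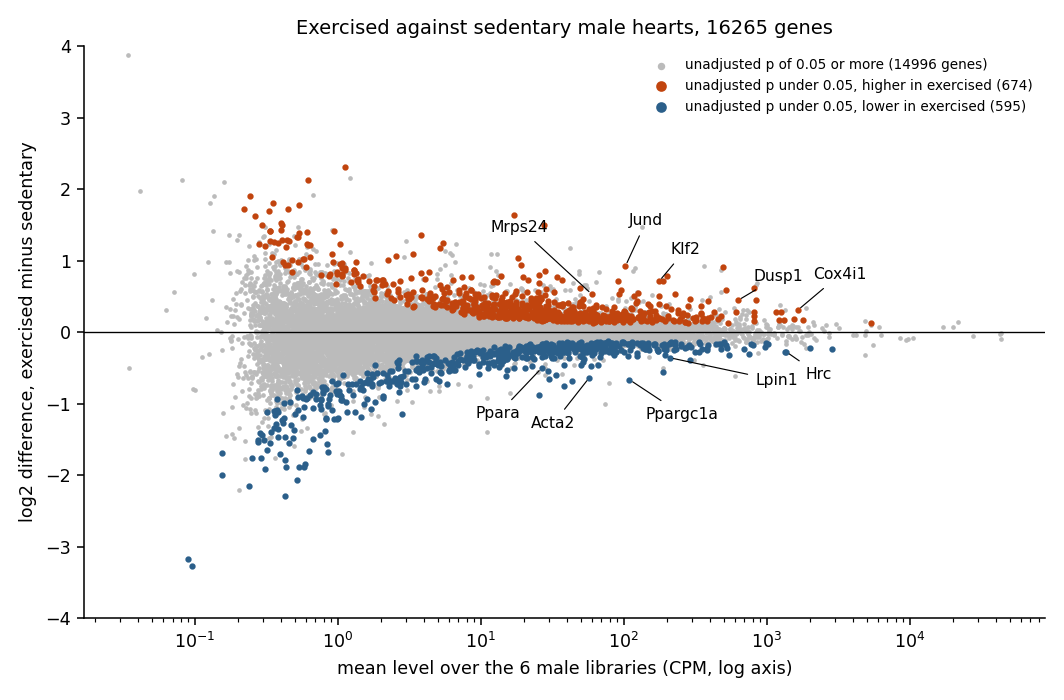
Log2 difference of each of 16265 genes (vertical axis, exercised minus sedentary males) against its mean level over the 6 male libraries (horizontal log axis, CPM). The 674 genes higher and 595 lower at an unadjusted p under 0.05 are coloured, wide differences sit at low levels, and the 10 labelled genes, described in the text, lie within 1 unit of 0.

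Among the immediate early transcription factors all 25 tested members lay above 0, with a median log2 difference of 0.66, and 10 were at p under 0.05. Over all genes 8104 of 16265 lay above 0 and the median was 0.00. Klf2, a flow-responsive transcription factor of endothelium, stood at 207, 263 and 189 CPM in male exercised 1, 2 and 3 and at 164, 132 and 106 CPM in male sedentary 1, 2 and 3. Every exercised library lay above every sedentary one, with a log2 difference of 0.71 ± 0.16 (SE) and an adjusted p of 0.581 by edgeR and 0.0149 by DESeq2. Jun, a subunit of the AP-1 factor, was at 999, 1212 and 732 CPM against 533, 670 and 718 CPM. The lowest exercised library was close to the highest sedentary one, and the log2 difference was 0.61 ± 0.15. Jund, another AP-1 subunit, was at 132, 177 and 95.5 CPM against 76.4, 89.2 and 47.7 CPM, a difference of 0.92 ± 0.25.

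Of 27 feedback regulators tested, which are made early and switch the same signals off, 26 lay above 0, 8 were at p under 0.05, all of them higher, and the median was 0.36. The count was 3 without male exercised 2 or male sedentary 1 and 16 without male exercised 3, and the median ran from 0.18 to 0.47. Dusp1, a phosphatase that inactivates MAP kinases, had 729, 828 and 623 CPM in exercised and 456, 585 and 562 CPM in sedentary hearts. The groups did not overlap, and the log2 difference was 0.44 ± 0.10 (DESeq2 adjusted p = 0.0366). Dusp10, a phosphatase for stress kinases, was at 9.27, 8.76 and 6.00 CPM against 3.97, 5.37 and 5.18 CPM, again without overlap (0.73 ± 0.19). Btg1, an antiproliferative factor, overlapped between the groups, with 52.0 CPM in male exercised 3 and 53.3 CPM in male sedentary 2 (0.46 ± 0.13).

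The 250 bases before the RefSeq start of Klf2, Dusp1 and Jun are printed because these 3 had the smallest p of both early lists. Each reads 5′ to 3′ on the strand of the gene, with TGACG, the short core of the cAMP response element, in capitals where it occurs on either strand. The windows are from build GRCm38.p6: chr8:72318812-72319061 on the plus strand for Klf2, chr17:26508473-26508722 on the minus strand for Dusp1 and chr4:95052223-95052472 on the minus strand for Jun.
Klf2: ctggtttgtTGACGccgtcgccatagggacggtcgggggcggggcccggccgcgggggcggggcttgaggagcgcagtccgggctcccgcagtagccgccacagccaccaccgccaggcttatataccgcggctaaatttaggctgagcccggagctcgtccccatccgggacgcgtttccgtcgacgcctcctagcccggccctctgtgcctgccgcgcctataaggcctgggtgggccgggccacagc
Dusp1: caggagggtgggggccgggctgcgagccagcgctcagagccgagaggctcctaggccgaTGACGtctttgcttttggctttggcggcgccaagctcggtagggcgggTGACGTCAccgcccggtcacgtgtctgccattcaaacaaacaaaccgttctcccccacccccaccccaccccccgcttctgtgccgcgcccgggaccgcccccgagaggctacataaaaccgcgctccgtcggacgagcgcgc
Jun: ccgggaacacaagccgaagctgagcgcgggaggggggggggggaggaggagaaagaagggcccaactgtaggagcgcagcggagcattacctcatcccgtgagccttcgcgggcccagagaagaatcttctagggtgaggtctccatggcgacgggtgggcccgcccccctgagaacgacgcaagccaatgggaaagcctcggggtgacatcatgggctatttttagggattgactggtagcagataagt
The Klf2 window held 1 such core, 241 bases before the start. The Dusp1 window held 3, of which the pair at 143 and 140 bases before the start are both strands of 1 full octamer, TGACGTCA. The Jun window held none. RefSeq windows were found for 19 of the 25 transcription factors and 22 of the 27 feedback regulators. A core stood in at least 1 window of 13 of those 19 genes (68.4%) and of 11 of those 22, against 3284 of 11226 genes tested that had a window (29.3%). By window, the octamer stood in 5 of 26 windows of the feedback regulators (19.2%) and 1 of 28 of the transcription factors (3.57%), against 353 of 14328 windows of the genes tested (2.46%), so that the share of the transcription factors was near the background. The windows of both lists were richer in G and C, with medians of 63.2% and 63.8% against 59.2% for the genes tested, and the part of base composition in these shares was not tested.

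As a list, the early genes overlapped between the groups. Averaged over the 25 transcription factors and taken relative to the mean of the 6 male libraries, log2 CPM was 0.30, 0.81 and -0.24 in male exercised 1, 2 and 3 and -0.73, 0.05 and -0.19 in male sedentary 1, 2 and 3. Male exercised 3 thus lay below 2 of the 3 sedentary libraries, and male sedentary 1 was the lowest of all. Fos, the partner of Jun in AP-1, shows the pattern, with 1074, 1391 and 630 CPM in exercised and 340, 773 and 848 CPM in sedentary hearts (0.66 ± 0.36). Egr1, a zinc finger factor, was at 975, 1563 and 651 CPM against 404, 781 and 798 CPM (0.69 ± 0.33). Myc, a transcription factor that drives growth, was at 28.9, 74.7 and 19.3 CPM against 7.79, 20.9 and 15.1 CPM (1.49 ± 0.55). Without male exercised 2, 21 of the 25 remained above 0, 4 were at p under 0.05 and the median was 0.29. Without male sedentary 1 the count was 5. Without male exercised 3, 17 were at p under 0.05 and the median was 0.86.

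**Figure D2:**
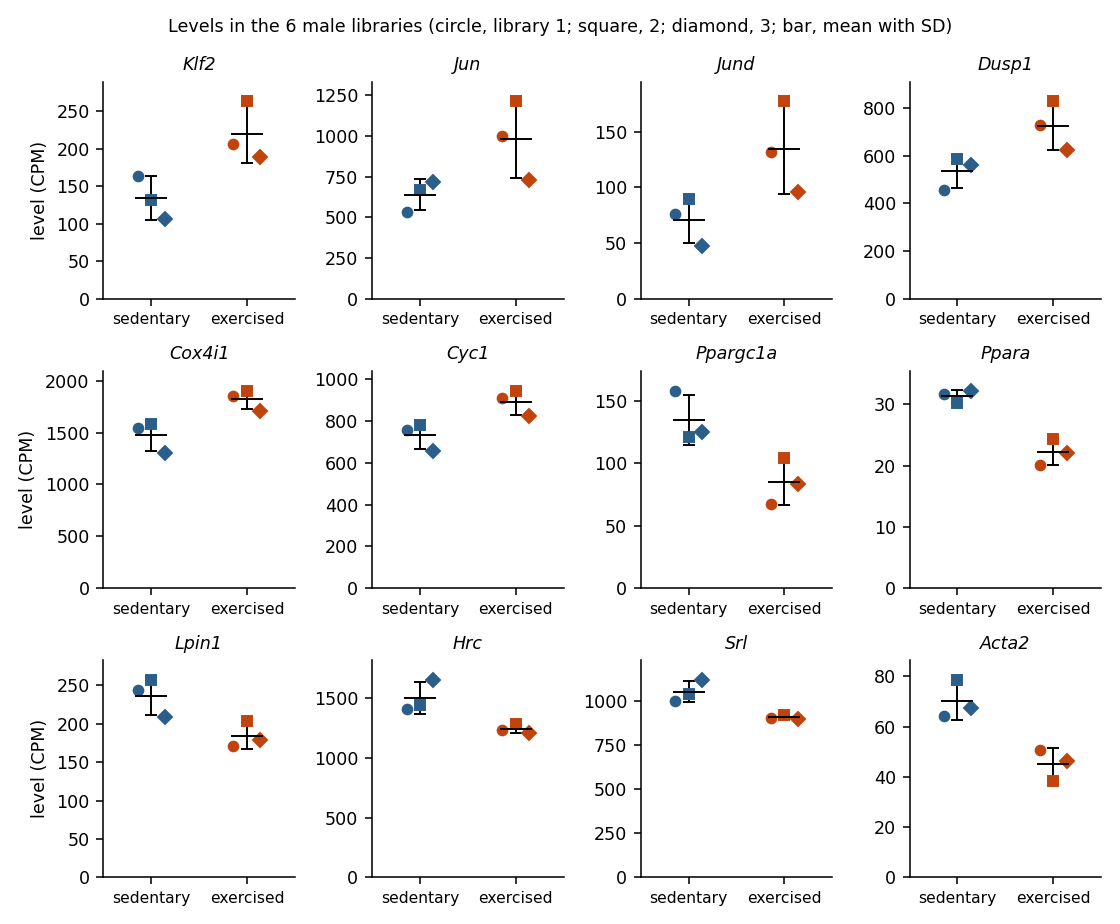
Levels (CPM, vertical axes from 0) of 12 genes in the 3 sedentary (blue) and 3 exercised (orange) male libraries, with the mean and SD. The groups do not overlap in any of these 12 genes, but Jun, Jund and Dusp1 spread widely among the exercised libraries, from 732 to 1212 CPM for Jun.

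Some regulators of mitochondrial and fat metabolism were lower. Of 21 genes of the PGC-1, PPAR and ERR group, 13 lay below and 8 above 0, with a median of -0.09, and the means of the list overlapped between the groups. At p under 0.05 were 6 genes, and all 6 were lower in exercised hearts. Ppargc1a, which encodes PGC-1 alpha, was at 67.0, 105 and 83.5 CPM in exercised and 158, 121 and 125 CPM in sedentary males. The highest exercised library lay below the lowest sedentary one, with a log2 difference of -0.67 ± 0.18 and an adjusted p of 0.581 by edgeR and 0.0397 by DESeq2. Ppara, the nuclear receptor that switches on fat-burning genes, was at 20.1, 24.4 and 22.1 CPM against 31.7, 30.3 and 32.2 CPM (-0.50 ± 0.13). Lpin1, a phosphatidate phosphatase that also acts with PGC-1 alpha, was at 171, 203 and 179 CPM against 243, 257 and 208 CPM (-0.36 ± 0.09). The other 3 were Rxrg, a receptor that pairs with PPARs (-0.25 ± 0.09), the corepressor Ncor1 (-0.19 ± 0.07) and Perm1, a muscle partner of this group (-0.23 ± 0.10). Esrra, the receptor ERR alpha, was at 0.15 ± 0.09 and Tfam, which packages mitochondrial DNA, at -0.02 ± 0.07. The count of members lower at p under 0.05 was between 4 and 6 with each male library left out in turn.

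Genes of fat oxidation differed little. Of 26 genes of the carnitine shuttle and beta-oxidation, 20 lay below 0, with a median of -0.10, 3 were lower at p under 0.05 and 0 higher. Without overlap between the groups, however, 4 of the 26 were higher and 1 was lower, against 6.07% and 6.25% over all genes. Hadha, of the mitochondrial trifunctional protein, was at 2061, 1634 and 1876 CPM in exercised and 2119, 2014 and 2383 CPM in sedentary hearts (-0.23 ± 0.08), so that the groups overlapped. Decr1, which prepares unsaturated fats for oxidation, was at -0.23 ± 0.09, and Etfdh, which hands electrons from fat oxidation to ubiquinone, at -0.17 ± 0.07. The count of 3 lower at p under 0.05 rests on single libraries: it was 11 without male exercised 1, 0 without male exercised 2 and 0 without male sedentary 3. Fabp3, the fatty acid carrier of heart muscle, was at 2954, 2281 and 2595 CPM against 2940, 2895 and 3420 CPM (-0.24 ± 0.09).

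Enzymes that burn branched-chain amino acids and ketones were mixed, with 4 of 21 lower and 2 higher at p under 0.05, of which the 2 became 0 without male exercised 2 or male sedentary 3. Mut, methylmalonyl-CoA mutase, was at 139, 129 and 142 CPM in exercised and 154, 159 and 160 CPM in sedentary hearts, without overlap (-0.21 ± 0.06, DESeq2 adjusted p = 0.0473). Dbt, of the branched-chain ketoacid dehydrogenase, was at -0.19 ± 0.06 and Acat1, of ketone use, at -0.17 ± 0.06. Pdpr, a regulatory subunit of pyruvate dehydrogenase phosphatase, was among the 12 genes of smallest p that were lower, at 43.9, 34.9 and 48.0 CPM against 57.2, 52.9 and 64.0 CPM (-0.46 ± 0.12). Of 28 citric acid cycle and pyruvate dehydrogenase genes, 14 lay above and 14 below 0, and 1 was at p under 0.05.

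Most nuclear genes of the respiratory chain lay above 0. Of 37 subunits of complex I tested, 29 were above 0 and 6 were higher at p under 0.05, with a median of 0.11, and the means of the list overlapped between the groups. That count ran from 2 without male sedentary 3 to 9 without male exercised 3 or male sedentary 1. Of 37 genes of complexes III to V and cytochrome c, 32 were above 0, 10 were higher and 0 lower at p under 0.05, and 17 had no overlap between the groups, with a median of 0.12. Cox4i1, a subunit of cytochrome c oxidase, stood at 1857, 1903 and 1712 CPM in exercised and 1542, 1581 and 1304 CPM in sedentary males (0.31 ± 0.07, DESeq2 adjusted p = 0.0497). Cyc1, the cytochrome c1 of complex III, was at 908, 944 and 823 CPM against 755, 782 and 655 CPM (0.29 ± 0.07). Ndufb8, of complex I, was at 396, 384 and 366 CPM against 336, 337 and 323 CPM (0.20 ± 0.06, DESeq2 adjusted p = 0.0497). In all 3 genes every exercised library lay above every sedentary one, by at most 1.24-fold between the means. Uqcc1, an assembly factor of complex III, was lower, at 145, 161 and 164 CPM against 186, 181 and 200 CPM (-0.27 ± 0.07). The count for complexes III to V was 6 without male exercised 1 and 3 without male sedentary 3, which had the lowest level in each of the 3 genes named higher.

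Genes of ribosomal proteins lay mostly above 0 as well. Of 78 cytosolic ribosomal proteins, 69 lay above 0, 14 were higher and 0 lower at p under 0.05, and the median was 0.09. Values of single ribosomal proteins are uncertain because of their many near-identical copies in the genome. The count was 4 without male exercised 1, 7 without male exercised 2 and 4 without male sedentary 3. Of 69 mitochondrial ribosomal proteins, 9 were higher and 1 lower at p under 0.05, with a median of 0.04, and the count of 9 was 2 without male exercised 2 or male sedentary 3. Mrps24, of the small mitochondrial subunit, was at 71.7, 74.3 and 66.6 CPM against 54.6, 54.7 and 37.8 CPM, a difference of 0.53 ± 0.11 (DESeq2 adjusted p = 0.0149). Mtif2, the initiation factor of mitochondrial translation, was at 42.0, 42.4 and 50.7 CPM against 62.4, 53.3 and 56.7 CPM (-0.35 ± 0.09).

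The smallest p of all belonged to Zfp622, a zinc finger protein that acts in maturation of the large ribosomal subunit. It stood at 46.2, 52.4 and 47.0 CPM in exercised and 40.0, 37.7 and 36.0 CPM in sedentary males, a difference of 0.36 ± 0.07 (adjusted p = 0.557 by edgeR and 0.0149 by DESeq2). Its gene lies at chr15:25984366-25998481 on the plus strand of GRCm38. Bms1, a GTPase needed to build the small ribosomal subunit, was lower, at 34.6, 38.2 and 36.7 CPM against 42.7, 45.1 and 46.4 CPM (-0.29 ± 0.06). Kti12, of the complex that modifies wobble bases of tRNA, was at 27.4, 35.0 and 28.6 CPM against 20.2, 25.1 and 19.4 CPM (0.49 ± 0.11). None of the 3 overlapped between the groups. Among 34 proteasome genes 3 were higher at p under 0.05, led by Psma7, of the core particle, at 0.21 ± 0.07, and 1 was without male exercised 2 or male sedentary 1. Of 28 ubiquitin ligases and autophagy genes 4 were higher and 0 lower, among them Sqstm1, a cargo receptor of autophagy (0.29 ± 0.10). That count was 1 without male exercised 2 or male sedentary 3.

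**Figure D3:**
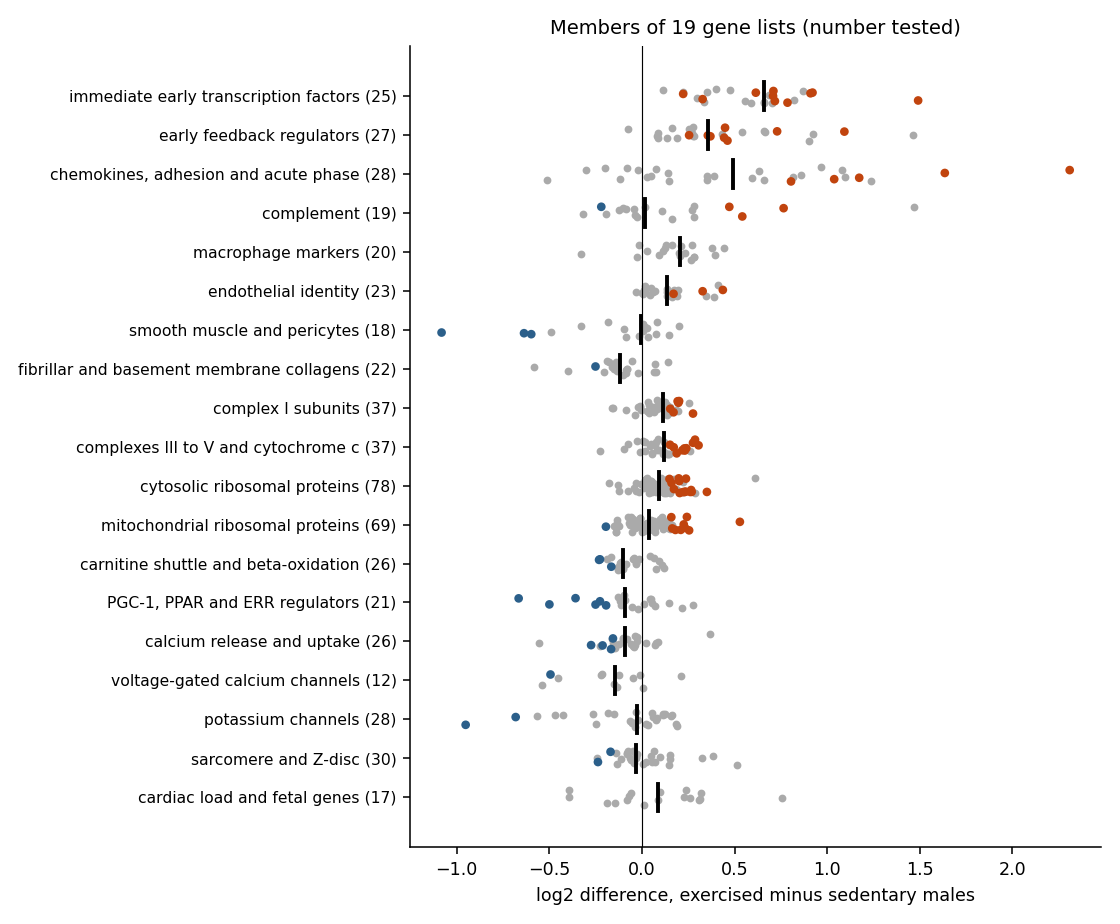
Log2 differences (horizontal axis, exercised minus sedentary males) of the members of 19 gene lists, 1 point a gene, with the number tested in brackets and the median as a black bar. Orange and blue points are at an unadjusted p under 0.05 above and below 0, and the medians run from -0.14 for voltage-gated calcium channels to 0.66 for the immediate early transcription factors.

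Calcium handling, which couples the electrical beat to contraction, lay slightly below 0. Of 26 genes of calcium release and uptake, 21 were below 0 with a median of -0.09, 4 were lower and 0 higher at p under 0.05, and 6 were lower without overlap. Hrc, a histidine-rich calcium-binding protein of the sarcoplasmic reticulum, was at 1228, 1281 and 1211 CPM in exercised and 1409, 1441 and 1649 CPM in sedentary hearts (-0.27 ± 0.07). Srl, sarcalumenin, which also binds calcium there, was at 904, 920 and 898 CPM against 996, 1040 and 1116 CPM (-0.21 ± 0.06). Casq2, the cardiac calsequestrin that stores calcium beside the release channel, was at 927, 913 and 953 CPM against 1061, 958 and 1092 CPM (-0.16 ± 0.06). The fourth was Asph, whose locus also makes the calsequestrin anchor junctin (-0.17 ± 0.07). Values of all 4 lay below the sedentary range in each exercised library, by 1.21-fold between the means for Hrc. The count ran from 3 to 5 with each male library left out in turn.

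The release channel and the pump themselves overlapped between the groups. Ryr2, the ryanodine receptor that releases calcium, was at 1322, 1250 and 1240 CPM in exercised and 1220, 1213 and 1492 CPM in sedentary hearts (-0.04 ± 0.10). Atp2a2, the pump that takes calcium back up, was at 0.07 ± 0.07 and Pln, its inhibitor phospholamban, at -0.06 ± 0.09. Of 12 voltage-gated calcium channel genes 10 lay below 0 and 1 was at p under 0.05. This was Cacna1s, the pore of the skeletal muscle channel, at 15.6, 18.5 and 16.5 CPM against 22.0, 25.2 and 24.2 CPM (-0.50 ± 0.13). Cacna1c, the pore of the cardiac L-type channel, was at 257, 308 and 259 CPM against 280, 272 and 270 CPM (0.01 ± 0.09).

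Other genes of the electrical system were mixed. Hcn2, a channel of the pacemaker current, was at 19.25, 33.1 and 23.7 CPM in exercised and 19.02, 18.7 and 13.6 CPM in sedentary males. The groups did not overlap, though the lowest exercised library lay 1.01-fold above the highest sedentary one (0.56 ± 0.17). Scn4b, a sodium channel beta subunit, was at 19.6, 44.5 and 36.2 CPM against 58.6, 54.1 and 47.4 CPM (-0.68 ± 0.29). Of 28 potassium channel genes, 2 were lower at p under 0.05: Kcna4, a transient outward channel, at -0.95 ± 0.33, and Kcnj14, an inward rectifier, at -0.68 ± 0.24, both under 4 CPM in every male library. Without male exercised 1, 6 were lower and 2 higher. Tbx3, a transcription factor that keeps conduction tissue distinct, was at 15.1, 12.6 and 14.7 CPM against 22.1, 17.6 and 20.3 CPM (-0.50 ± 0.13). Among 16 cardiac transcription factors tested, 2 were higher and 1 lower at p under 0.05. Without male exercised 2 or male sedentary 3, 0 were higher and 2 lower. Pde3a, which breaks down cAMP, was at 89.6, 89.2 and 82.8 CPM against 92.8, 104 and 114 CPM (-0.25 ± 0.08). Among 27 genes of adrenergic and muscarinic signalling, 1 was higher and 2 were lower. Without male exercised 3 or male sedentary 2, 4 were higher and 2 lower.

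Markers of cardiac load did not separate the groups. Of 17 genes of load and the fetal programme, 10 lay above 0, with a median of 0.09, and 0 were at p under 0.05. The median was -0.16 without male exercised 2. Nppa, the atrial natriuretic peptide, was at 35.5, 79.9 and 69.4 CPM in exercised and 58.3, 132 and 52.0 CPM in sedentary males (-0.39 ± 0.41). Nppb, the B-type peptide, ran from 198 to 761 CPM in exercised and from 339 to 503 CPM in sedentary hearts (0.24 ± 0.44). Myh7, the fetal myosin heavy chain, was at 601, 1165 and 684 CPM against 828, 876 and 1002 CPM (-0.14 ± 0.25). Acta1, skeletal actin, was at 95.2, 382 and 330 CPM against 402, 358 and 300 CPM (-0.39 ± 0.52). Their SEs of 0.25 to 0.52 are larger than the median SE of 0.14 over all genes, so that these 4 genes give a less precise answer than most.

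In the contractile apparatus and its anchors 2 of 30 sarcomere and Z-disc genes were lower and 0 higher at p under 0.05. Without male exercised 2, 6 were lower, and without male exercised 1, 4 were higher and 1 lower. Pdlim5, a Z-disc scaffold, was at 593, 662 and 670 CPM in exercised and 710, 774 and 784 CPM in sedentary hearts (-0.24 ± 0.07). Outside that list, Fsd2, a muscle protein found near the sarcoplasmic reticulum, was at 310, 329 and 327 CPM against 378, 358 and 404 CPM (-0.24 ± 0.06, DESeq2 adjusted p = 0.0406). Dtna, alpha-dystrobrevin of the dystrophin complex, was at 50.05, 51.4 and 54.0 CPM against 62.2, 61.8 and 62.8 CPM, a gap wider than the range within either group (-0.27 ± 0.06). Mtmr14, a phosphoinositide phosphatase of muscle, was at 24.8, 28.1 and 24.2 CPM against 18.1, 19.8 and 19.1 CPM (0.43 ± 0.09, DESeq2 adjusted p = 0.0149).

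Of 31 genes of exercise growth signalling 4 were higher and 0 lower at p under 0.05, with a median of 0.11. Without male exercised 2 this direction did not hold: 14 of 31 lay above 0, the median was -0.01 and 1 was higher. Without male exercised 1, 2 were higher. Cited2, a coregulator of transcription, was at 122, 179 and 146 CPM in exercised and 118, 108 and 78.8 CPM in sedentary males (0.55 ± 0.15). Igf1, the insulin-like growth factor, was at 11.7, 11.5 and 11.4 CPM against 7.49, 10.3 and 9.61 CPM, without overlap (0.34 ± 0.14). Cebpb, a transcription factor studied in exercise growth of the heart, was at 54.1, 81.6 and 51.9 CPM against 35.2, 58.6 and 12.2 CPM, with overlap (0.82 ± 0.51). Bad, a BH3 protein of programmed cell death, was at 11.9, 12.3 and 10.9 CPM against 9.34, 8.45 and 7.30 CPM (0.48 ± 0.11), and Dapk3, a death-associated kinase, was at 0.39 ± 0.09. Both were among the 12 genes of smallest p that were higher, as was Faf1. Faf1, a FAS-binding factor, was at 88.2, 100 and 87.3 CPM against 73.1, 80.2 and 71.7 CPM (0.29 ± 0.07).

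In the defence against oxidants and in iron storage a few genes stood out. Gpx1, which reduces hydrogen peroxide, was at 60.5, 53.7 and 55.6 CPM in exercised and 43.4, 47.6 and 38.8 CPM in sedentary hearts (0.39 ± 0.09, DESeq2 adjusted p = 0.0301). Gclm, of glutathione synthesis, was at 34.8, 30.1 and 25.1 CPM against 16.7, 21.6 and 22.8 CPM (0.56 ± 0.20). Msrb3, which repairs oxidised methionine and is outside the antioxidant list counted below, was lower, at 103, 116 and 108 CPM against 140, 129 and 142 CPM (-0.33 ± 0.07, DESeq2 adjusted p = 0.0149). Of 32 antioxidant genes 3 were higher and 1 lower at p under 0.05, and 6 were higher without male exercised 3. Fth1, the ferritin heavy chain that stores iron, was at 1333, 1327 and 1170 CPM against 1089, 1027 and 1022 CPM (0.29 ± 0.07), and Ftl1, the light chain, was at 0.39 ± 0.10. Both ferritin chains have close copies in the genome. Tfrc, the transferrin receptor that takes iron in, was at 24.2, 33.8 and 26.9 CPM against 74.5, 36.2 and 32.3 CPM (-0.76 ± 0.30), and the difference without male sedentary 1, its highest library, was -0.28.

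Genes of the vessel wall were mixed. In bulk tissue fewer cells of a type and less RNA per cell cannot be told apart. Of 23 endothelial genes 21 lay above 0, with a median of 0.14, and 3 were higher at p under 0.05, or 1 without male exercised 3 or male sedentary 3. Rasip1, which keeps vessel lumens open, was at 31.0, 40.0 and 31.7 CPM in exercised and 25.6, 28.1 and 22.0 CPM in sedentary males (0.44 ± 0.11). Pecam1, a general endothelial marker, was at 194, 190 and 190 CPM against 177, 192 and 182 CPM, with overlap (0.06 ± 0.08). Of 18 smooth muscle and pericyte genes 3 were lower at p under 0.05, and these 3 are contractile proteins of smooth muscle. Acta2, smooth muscle actin, was at 50.8, 38.2 and 46.2 CPM against 64.4, 78.5 and 67.3 CPM (-0.64 ± 0.25). Myh11, smooth muscle myosin, was at 33.2, 23.7 and 23.7 CPM against 36.3, 47.1 and 38.7 CPM (-0.60 ± 0.22), and Cnn1, calponin, was at -1.08 ± 0.43 with 3.63 CPM at most. None of the 3 was at p under 0.05 without male sedentary 2, and 1 member was without male exercised 2. Of the 18 members 9 lay above and 9 below 0, so that the median was 0.00.

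**Figure D4:**
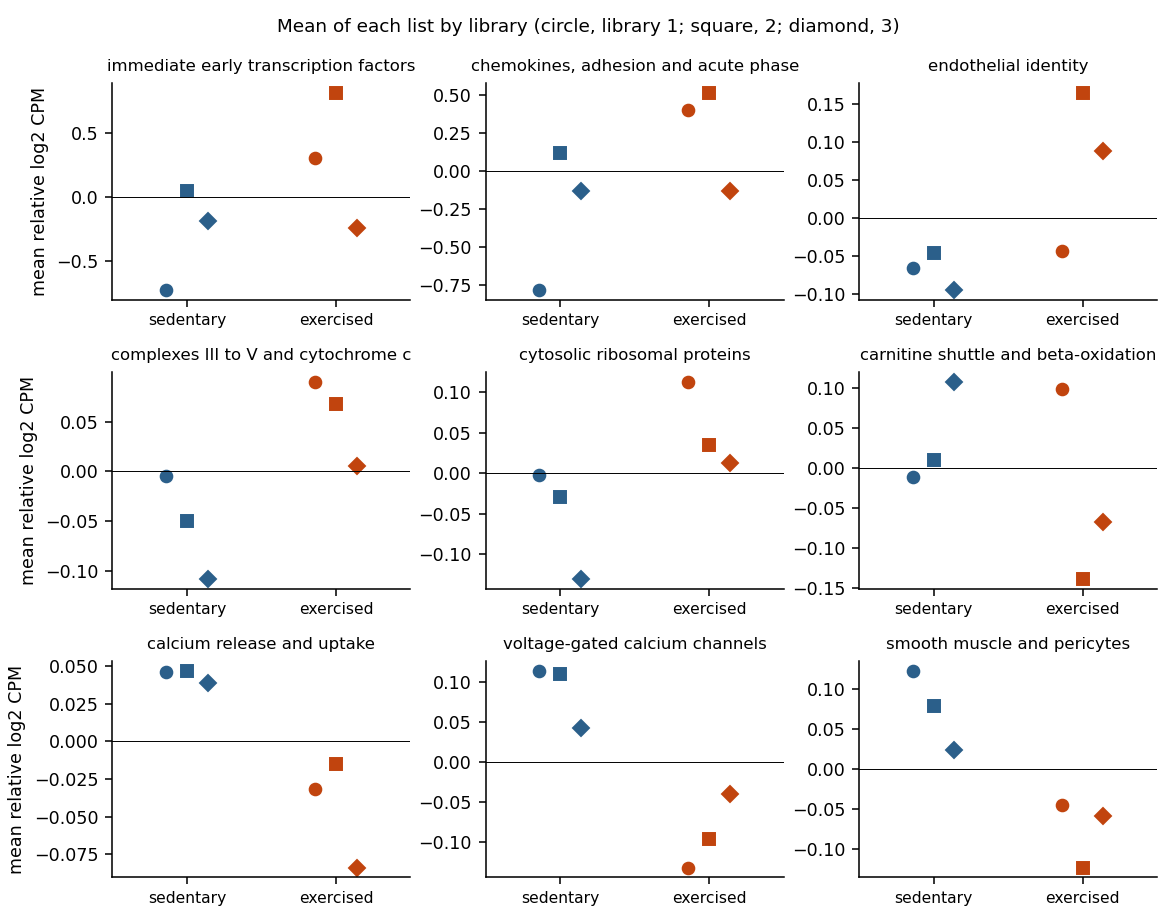
Mean of each of 9 gene lists in each male library (vertical axes, log2 CPM relative to the mean of the 6 male libraries, with a scale of its own in each panel). The exercised and sedentary libraries separate for endothelial, complex III to V, ribosomal, calcium and smooth muscle genes, and overlap for the immediate early, chemokine and fat oxidation lists.

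Genes of inflammation spread widely within both groups. The mean of the chemokine, adhesion and acute phase list, relative to the 6 male libraries, was 0.40, 0.52 and -0.13 in male exercised 1, 2 and 3 and -0.78, 0.12 and -0.13 in male sedentary 1, 2 and 3. Of its 28 genes tested, 22 lay above 0 and 5 were higher at p under 0.05, with a median of 0.49. Selp, the P-selectin of activated endothelium and platelets, was at 2.89, 2.47 and 0.298 CPM in exercised and 0.454, 0.338 and 0.330 CPM in sedentary males (2.31 ± 0.68). Sele, E-selectin, was at 10.4, 8.53 and 2.51 CPM against 1.70, 3.80 and 4.10 CPM (1.17 ± 0.46). Both were high in male exercised 1 and 2 and within or below the sedentary range in male exercised 3. Cxcl2, a chemokine for neutrophils, was at 18.8, 42.1 and 16.6 CPM against 2.08, 14.1 and 8.95 CPM (1.64 ± 0.65). The count of 5 was 1 without male exercised 2 or male sedentary 1, 2 without male exercised 1 or male sedentary 3, and 8 without male exercised 3 or male sedentary 2. Of 20 macrophage genes 17 lay above 0, with a median of 0.20, and 0 were at p under 0.05. Without male sedentary 2, 8 of the 20 were higher at p under 0.05 and the median was 0.35, and without male exercised 3, 2 were. C3ar1 and C5ar1, receptors for complement fragments, were at 0.54 ± 0.16 and 0.77 ± 0.24, and both overlapped between the groups. The complement list had 10 of 19 genes above 0 and 9 below, a median of 0.02, and 3 higher and 1 lower at p under 0.05. Without male exercised 1 or male sedentary 1, 3 were higher and 3 lower, and without male sedentary 2, 6 were higher and 0 lower. The neutrophil genes S100a8, S100a9 and Retnlg and the lymphocyte genes Cd3e, Cd79a and Ms4a1 were at 0.16 CPM or less in every male library. Other members of their lists were detected. Summed by library, 18 lymphocyte genes reached 5.22 to 7.42 CPM and 15 neutrophil and mast cell genes 9.52 to 15.5 CPM.

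Collagen genes lay mostly below 0, with 18 of 22 below 0, a median of -0.12 and 1 lower at p under 0.05. That count was 6 without male exercised 3 and 0 without male exercised 1, male exercised 2, male sedentary 2 or male sedentary 3. The 1 gene was Col18a1, a basement membrane collagen, at 7.98, 8.62 and 9.41 CPM in exercised and 9.57, 10.3 and 11.1 CPM in sedentary hearts (-0.25 ± 0.11). Col1a1, the main fibrillar collagen, was at 0.14 ± 0.11. Of 31 cell cycle genes 25 lay above 0 and 1 was higher at p under 0.05. The count was 5 without male sedentary 2 and 0 without male sedentary 1 or male sedentary 3. Ccna2, cyclin A2, was at 1.97, 1.26 and 2.13 CPM against 0.794, 1.35 and 0.565 CPM, with overlap (0.97 ± 0.36). Of 23 clock genes and outputs 0 were at p under 0.05. Dbp, a clock output factor, ran from 27.2 to 98.2 CPM in exercised and from 11.3 to 43.8 CPM in sedentary hearts (1.18 ± 0.81). Male sedentary 1 had the lowest Dbp and, at 27.6 CPM, the highest Arntl, a core clock activator (-0.85 ± 0.59). The sources used here give no times of harvest, and the part of the clock in the other results was not tested.

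Among long noncoding RNAs, Hand2os1, transcribed beside the heart transcription factor gene Hand2, was at 52.1, 42.0 and 54.1 CPM in exercised and 64.9, 66.2 and 74.4 CPM in sedentary hearts (-0.47 ± 0.10, DESeq2 adjusted p = 0.0264). The sources used here do not give the strand setting of the counting, so that reads of overlapping genes cannot be told apart. Of 15 long noncoding RNAs of a chosen list, none was at p under 0.05.

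The difference between exercised and sedentary males was not shown to differ from that in females for any gene in edgeR. For the male minus the female effect 0 of 16265 genes passed (0.0%, smallest adjusted p = 0.885), and 768 were at an unadjusted p under 0.05 (4.72%). DESeq2 gave 10 genes an adjusted p under 0.05, and edgeR gave these 10 an adjusted p of 0.885 to 0.931. Vwa8, a mitochondrial ATPase, had the smallest adjusted p by DESeq2 outside the Y chromosome. In males it was at 307, 268 and 282 CPM in exercised and 342, 329 and 363 CPM in sedentary hearts (-0.27 ± 0.07). In females it was at 266, 258 and 274 CPM in exercised and 238, 218 and 200 CPM in sedentary hearts (0.28 ± 0.08), without overlap in either sex. The difference of the effects was -0.56 ± 0.11, with an adjusted p of 0.885 by edgeR and 0.00313 by DESeq2. Fyco1, an adaptor that moves autophagosomes, was at -0.28 ± 0.07 in males and 0.18 ± 0.07 in females (difference -0.46 ± 0.10, DESeq2 adjusted p = 0.0103). Acta2 was at 165, 97.1 and 117 CPM in exercised and 95.5, 52.2 and 87.7 CPM in sedentary females (0.69 ± 0.25), against -0.64 in males (difference -1.32 ± 0.35, DESeq2 adjusted p = 0.0103).

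By list, fat oxidation had many genes at p under 0.05 for the difference of the effects. Of its 26 genes 15 were lower in the male minus female contrast and 0 higher, with a median of -0.10 in males and 0.17 in females, where 25 of 26 lay above 0. The count of 15 ran from 12 to 17 with each of the 12 libraries left out in turn. Etfdh was at 721, 704 and 697 CPM in exercised and 614, 585 and 552 CPM in sedentary females (0.28 ± 0.07), and the difference of the effects was -0.44 ± 0.10 (DESeq2 adjusted p = 0.0438). Of the 78 ribosomal proteins 10 were higher in this contrast and 0 lower, with 69 above 0 in males and 16 in females. These rest on single libraries: the count of 10 was 3 without female sedentary 3 or male sedentary 3 and 24 without female sedentary 2, and the number above 0 in females was 54 and 2 without those females. Most genes of complexes III to V lay above 0 in both sexes, 32 of 37 in males and 35 in females. Early genes did so as well, with 23 of 25 transcription factors above 0 in females and a median of 0.41. The atrial Myl7 stood at 107 CPM in female exercised 2 and 65.6 CPM in female sedentary 1, was next highest in female sedentary 2, and was no more than 2.34 CPM in the other 9 libraries. Red cell and fat cell genes stood out in the same females. Hbb-bs was at 969 CPM in female sedentary 1, 453 in female sedentary 2 and 77.1 in female exercised 2, against 24.0 CPM at most in the other 9 libraries. Adipoq was at 10.1 CPM in female exercised 2 and 1.46 CPM at most elsewhere. In female sedentary 2, 27.33% of the reads were of the mitochondrial rows, which were at 0 in the other 11 libraries and were dropped in all. Rows for nuclear copies of mitochondrial genes stayed in. The difference of the effects for Vwa8 was -0.58, -0.62 and -0.55 without female exercised 2, female sedentary 1 and female sedentary 2 in turn, and that for Acta2 was -1.48, -1.49 and -1.10. The part of these tissues in the differences between the sexes was otherwise not tested.

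The male difference varied with the base composition of the gene. The genes were split by GC content into 5 bins of like size. In the bin richest in G and C, from 55.3% to 78.3%, the median log2 difference was 0.09, with 272 genes higher and 45 lower at p under 0.05. In the poorest bin, from 25.6% to 43.8%, the median was -0.05, with 65 higher and 175 lower. Relative to the mean of the 6 male libraries, the richest bin lay at 0.14 in male exercised 2 and -0.12 in male sedentary 3, and between -0.02 and 0.02 in the other 4. When this trend was taken out of each library, 648 genes were higher and 592 lower at p under 0.05, and 0 passed. The early genes kept a median of 0.54, and complexes III to V one of 0.11, whereas the endothelial median went from 0.14 to 0.07 and that of growth signalling from 0.11 to 0.03. Cyc1 went from 0.29 to 0.13, Rasip1 from 0.44 to 0.23, Hcn2 from 0.56 to 0.31, Dapk3 from 0.39 to 0.19 and Jund from 0.92 to 0.63. Klf2, Jun, Ppargc1a, Ppara, Hrc and Acta2 were then at 0.55, 0.56, -0.61, -0.50, -0.29 and -0.62. Long genes also lay lower, with a median of -0.04 in the longest of 5 length bins and 48 genes higher against 165 lower. The shortest bin had 197 higher and 93 lower, and the next 200 and 96. The median exon length was 1675 bases for complexes III to V, 1775 for cytosolic ribosomal proteins and 3189 for the early transcription factors. It was 5703 for calcium release and uptake, 5462 for the PGC-1 group and 8658 for growth signalling, which lay mostly above 0, against 3950 over all genes. The adjustment was for GC content only. Whether base composition beyond it, or length, had a part in these results was not tested.

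**Figure D5:**
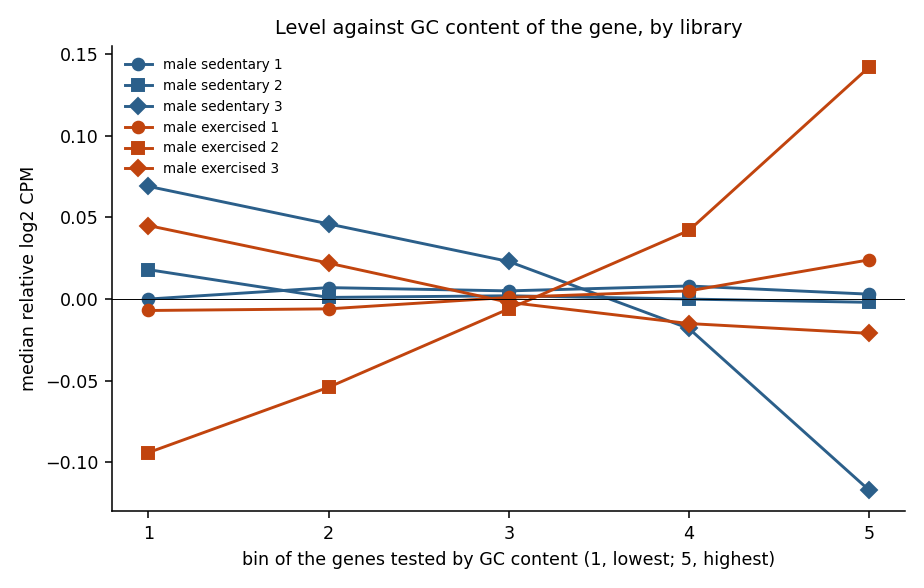
Median log2 CPM relative to the mean of the 6 male libraries (vertical axis) of the genes tested, in 5 bins by GC content (horizontal axis). Male exercised 2 runs from -0.09 in the poorest to 0.14 in the richest bin and male sedentary 3 from 0.07 to -0.12, while the other 4 libraries stay within 0.05 of 0.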

How the data were processed

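RNA was measured in bulk hearts of 12 mice's libraries, and the 6 male ones are compared here. The authors deposited counts of reads per gene, with no normalization. The tools named in the submitters' processing notes are Trimmomatic 0.36 for trimming, STAR 2.5.2b for alignment to GRCm38, and featureCounts from Subread 1.5.2. The sources used here do not give the annotation release or strand setting. Of 55401 rows, 37 of the mitochondrial chromosome were dropped. These were at 0 in all libraries but female sedentary 2. Nuclear copies of mitochondrial genes were kept. The highest copy had a mean of 43890 CPM over the 6 male libraries, the highest level of any gene tested, and such copies count in every CPM total. Whether reads of the copies came from the mitochondrial chromosome was not tested. 54349 identifiers matched the GENCODE M21 annotation of GRCm38 with their version, and 55141 rows have a symbol. Promoter windows are RefSeq's for GRCm38.p6, and TGACG and its octamer were searched on both strands.

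The filterByExpr filter of edgeR 4.0.16 (R 4.3.3) kept 16265 genes, and scaling used the trimmed mean of M-values (TMM). All 12 libraries entered a group-means model (8 residual degrees of freedom, robust spread estimates), tested by quasi-likelihood with Benjamini-Hochberg adjustment at 0.05. SEs are the log2 difference divided by the root of F, and levels are CPM. p-values set each difference against the spread between libraries within groups, estimated over all 12 libraries.

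The comparison, the 57 gene lists and the panel were chosen with earlier results of these data known, so lists are described by counts and medians, without a test. Genes were named by rule: in each direction the 12 of smallest p without overlap between groups and with a mean of at least 1 CPM in 1 group, leaving out Gm, Rik and pseudogene symbols. To these came the 3 members of smallest p of each list, the 6 genes of smallest p between the sexes, and a panel of heart genes. The text gives a part of them, and some are not reported here. Fos, Egr1, Myc, Scn4b, Asph, Rxrg, Ncor1, Perm1, Esrra, Tfam and Pecam1 are further list members chosen after their values were seen.

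The alternatives were RLE and upper-quartile scaling, no filter together with edgeR's bias-adjusted test, CPM above 1 in 3 libraries, and DESeq2 1.42.0. Others were voom of limma 3.58.1, no robustness, the 6 male libraries alone, and each library left out. Taking out each library's GC trend was added after the data were seen.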

Additional observations from a re-analysis of the deposited data

How the results depend on the processing

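In males the count of 0 genes past the threshold held in each setting but DESeq2, which gave 25 among the 6175 genes it adjusted over. Genes at an unadjusted p under 0.05 numbered 1269. In the other settings they numbered between 882 (the 6 male libraries alone) and 1608 (no filter, with the bias-adjusted test). With a library left out they ran from 748 without male sedentary 3 to 1830 without male exercised 3. For the male minus female effect DESeq2 gave 10, the fits without 1 library gave 0 to 1, with 1 gene only without female exercised 3, and the fit without a filter left 1185 genes at p under 0.05, against 768. That fit tests more genes and also uses edgeR's bias-adjusted form of the test, and these changes were not separated. The cause of the moves was not tested. The value of each gene named kept its sign under the other scalings, filters, tests and the GC adjustment except Cacna1c (-0.002 under upper-quartile scaling and -0.001 under voom), Pln (0.003) and Tfam (0.009), both with the GC trend taken out. Leaving out 1 male library in turn gave -0.73 to 0.01 for Acta1, -0.086 to 0.051 for Cacna1c, -0.49 to 0.035 for Myh7, -0.63 to 0.16 for Nppa, -0.25 to 0.61 for Nppb, -0.12 to 0.038 for Pln, -0.094 to 0.063 for Ryr2 and -0.059 to 0.013 for Tfam. Of 570 list medians under other scalings, the males alone, the GC adjustment and each male library left out, 25, in 15 of 57 lists, moved by at least the spread between libraries. No paired analysis was possible because the labels give the groups no shared replicate numbers, and the numbers used here follow accession order. With 3 libraries a group, the median SE of 0.14 limits what can be seen.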
